A study of Homo sapiens with 2 samples.

Results

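The genes described here are those of the aminoacyl-tRNA synthetases, read from RNA-seq of Huh7 cells, a human hepatocellular carcinoma line. They were chosen as every row of the deposited gene table whose description holds the words tRNA synthetase and not the word pseudogene. The rule found 41 of the 61541 genes in the table, of which 26379 had reads. Of 56 rows described with these words, 15 were pseudogenes and were left out. Only 2 of those 15 had any reads, with 19 reads in all in one library and 30 in the other. One library was made from cells given a control siRNA (Huh7-NC) and one from cells given an siRNA that targets BRF2 (Huh7-si), so each of the 2 conditions has 1 library. The cells of both conditions were of the same line and carried no labelled change other than the siRNA, and the labels do not say which BRF2 siRNA was used or how long after transfection RNA was taken. BRF2 is a subunit of the TFIIIB complex that brings RNA polymerase III to a small class of genes with upstream promoters.

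Aminoacyl-tRNA synthetases join each amino acid to the tRNAs that carry its anticodons, and so supply the charged tRNAs that every ribosome uses. Human cells keep 2 sets, both encoded in the nucleus. One works in the cytosol, and the other is imported into mitochondria and serves the proteins made there. By convention the cytosolic genes carry the suffix 1 and the mitochondrial genes the suffix 2. The glycine enzyme (GARS1) and the lysine enzyme (KARS1) serve both compartments from a single gene. Several cytosolic enzymes sit with scaffold proteins in a large multisynthetase complex. When amino acids run short, uncharged tRNA activates the kinase encoded by EIF2AK4, and the transcription factor ATF4 then acts on many cytosolic synthetase genes.

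By these roles, the 41 genes held 19 cytosolic enzymes, 2 that serve both compartments, 17 mitochondrial enzymes and 3 proteins that do not charge tRNA. The last were AIMP1 and AIMP2, scaffold proteins of the multisynthetase complex, and AARSD1, an editing protein related to the alanine enzyme. Between Huh7-NC and Huh7-si no gene of the 41 changed by a fold of 2, and the 19 cytosolic and 17 mitochondrial enzymes spread over nearly the same range. The log2 fold change, Huh7-si over Huh7-NC, ran from -0.38 for FARSA to 0.34 for LARS1 among cytosolic genes and from -0.37 for FARS2 to 0.33 for VARS2 among mitochondrial genes.

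Promoter sequence is shown first because the amino acid response acts through a short element near the start of synthetase genes. RefSeq promoter windows, 250 bases before to 50 bases after the annotated start on GRCh38.p14, were matched for 33 of the 41 genes. Windows of the other genes, among them AARS2, TARS3, VARS1, YARS1, LARS1 and VARS2, were not used here. Coordinates are those of GRCh38.p14 and not of the build in the submitters' processing notes. The element TGATGNAA, to which ATF4 binds with a CEBP partner, was searched on both strands. A gene counted once if any of its windows held a match. The element was found for 8 of the 33 genes (24.2%), against 4.46% of the 27305 genes with a window. That share is over every gene with a window, with or without reads here, while the 33 genes were all expressed. A share over expressed protein-coding genes alone was not taken for any motif. The stretches below are given because they hold those 8 matches, written 5′ to 3′ in the direction of the gene, with the match in capitals and 20 bases on each side. The cytosolic enzymes for alanine, cysteine, isoleucine, methionine, asparagine and threonine come with GARS1 and with YARS2, the mitochondrial tyrosine enzyme.
AARS1, chr16:70289666-70289713, minus strand: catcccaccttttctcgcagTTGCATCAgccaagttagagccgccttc
CARS1, chr11:3057398-3057445, minus strand: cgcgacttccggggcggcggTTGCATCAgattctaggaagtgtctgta
GARS1, chr7:30594825-30594872, plus strand: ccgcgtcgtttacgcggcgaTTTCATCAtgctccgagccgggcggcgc
IARS1, chr9:92293683-92293730, minus strand: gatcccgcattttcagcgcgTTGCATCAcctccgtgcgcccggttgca
MARS1, chr12:57488044-57488091, plus strand: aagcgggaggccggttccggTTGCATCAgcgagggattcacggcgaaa
NARS1, chr18:57621795-57621842, minus strand: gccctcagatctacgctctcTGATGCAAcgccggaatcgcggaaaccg
TARS1, chr5:33440947-33440994, plus strand: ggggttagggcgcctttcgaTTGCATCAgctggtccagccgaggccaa
YARS2, chr12:32756067-32756114, minus strand: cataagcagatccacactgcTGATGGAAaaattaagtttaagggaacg
Of these 8 stretches, 5 carried the same 8 letters in the same orientation. The genes with the element were 6 of 14 cytosolic, 1 of 14 mitochondrial and GARS1.

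The histidine pair is shown for another reason, since both of its genes start from one shared stretch. The windows of HARS1 and HARS2 overlap by 184 bases on opposite strands, and their starts lie 85 bases apart. The HARS2 window holds a pair of matches, in capitals, to CCGGAAG, the core bound by ETS factors, read on either strand.
HARS2, chr5:140691205-140691504, plus strand: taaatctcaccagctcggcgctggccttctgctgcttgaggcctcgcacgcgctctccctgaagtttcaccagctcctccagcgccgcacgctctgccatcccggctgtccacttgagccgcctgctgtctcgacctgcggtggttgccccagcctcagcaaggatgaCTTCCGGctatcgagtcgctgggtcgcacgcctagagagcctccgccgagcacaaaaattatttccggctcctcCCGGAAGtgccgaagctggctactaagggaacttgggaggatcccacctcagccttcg
CCGGAAG was found in windows of 16 of the 33 synthetase genes (48.5%), against 12.2% of all genes with a window, expressed or not. HARS1 and HARS2 are both among the 16 through the same matches in their shared stretch. The E-box CACGTG was found in 5 (15.2%), against 8.77%, and the NRF1 element GCGCATGCG in 1, that of MARS2 (3.03%), against 2.34%. None of these 4 motifs is contained in another. A match describes letters in a window and is not evidence of a bound factor.

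The 2 libraries held 22852648 and 22089016 reads assigned to genes, in Huh7-NC and Huh7-si. BRF2 (ENSG00000104221) had 1281 reads in Huh7-NC against 364 in Huh7-si, or 30.8 and 10.2 TPM (a transcript level scaled for length and library size). Its log2 fold change was -1.77 (95% interval -1.94 to -1.60; exact binomial p = 4.9e-113). All 8 hepatocyte or hepatoma markers had reads, and their summed level was 12720 TPM in Huh7-NC and 13195 in Huh7-si. Single markers moved both ways, with APOB, an apolipoprotein of secreted lipoproteins, called higher at 1.04 (20889 and 41399 reads) and APOA1 lowest at -0.83 (15460 and 8417 reads). Markers of other cells summed to 10.4 and 16.2 TPM, with PTPRC, of leukocytes, at 5 reads and 1 read and COL1A1, a fibroblast collagen, at 76 and 229. Whether these marker shifts bear on the synthetase values was not tested. Intervals and p-values describe counting error between 2 libraries and not a spread between cultures, since there were no replicates. In bulk RNA, fewer cells of a type and less RNA per cell cannot be told apart.

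Levels differed widely within the family. MARS1, the methionine enzyme, had the highest level in both libraries, with 322 TPM in Huh7-NC and 473 in Huh7-si. TARS3, a second cytosolic threonine enzyme, had the lowest, with 4.89 and 4.02 TPM. All 41 genes had at least 100 reads in each library, from 191 for TARS3 in Huh7-si to 12805 for AARS1 in Huh7-NC. KARS1 followed MARS1 in Huh7-NC with 224 TPM, before QARS1, the glutamine enzyme, with 215, and FARSA, a subunit of the phenylalanine enzyme, with 210. After MARS1 the order in Huh7-si was QARS1 with 302 TPM, AARS1 with 212.39, KARS1 with 211.67, and FARSA with 183. The top 5 were the same 5 genes in both libraries. The order depends on the length used. CPM (reads in a library scaled to a common total) divided by the deposited gene length in kilobases put AARS1 first, at 157 in Huh7-NC and 160 in Huh7-si, and MARS1 at 124 and 131.

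**Figure D1:**
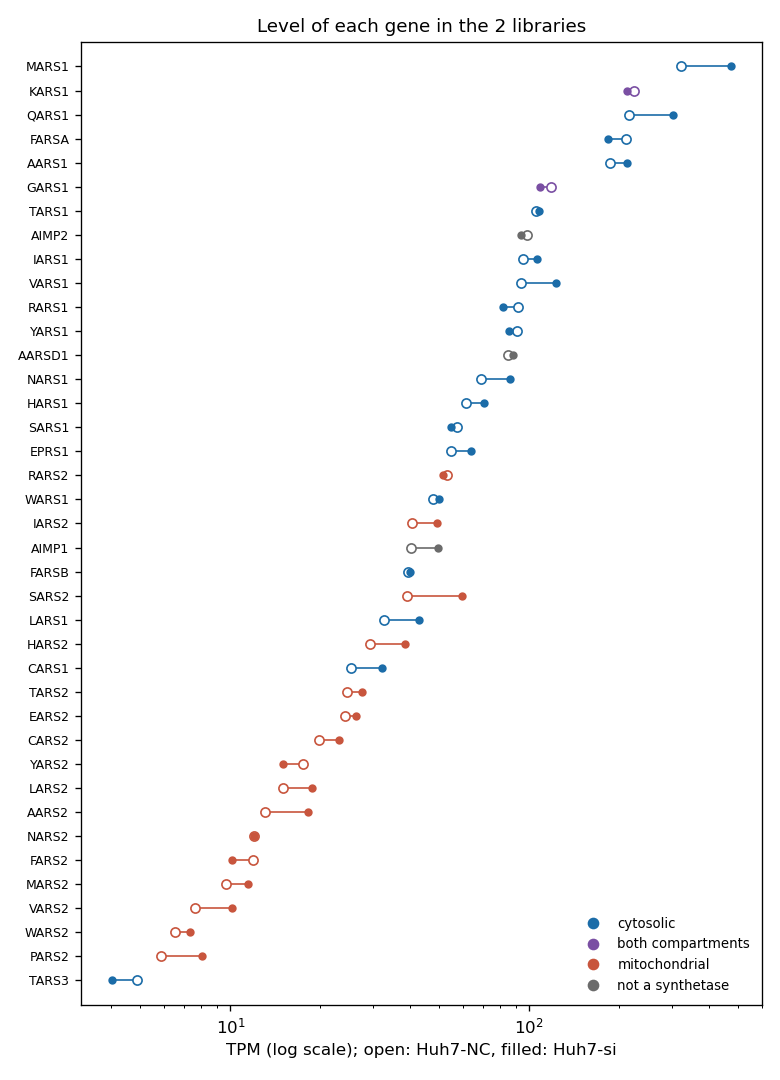
The level of each of 39 genes in TPM on a log axis, open circles for Huh7-NC and filled circles for Huh7-si, ordered by the level in Huh7-NC and coloured by compartment. MARS1 lies at the top with 322 and 473 TPM, and most mitochondrial enzymes lie below the cytosolic ones.

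Cytosolic enzymes were expressed above mitochondrial ones. The median level of the 19 cytosolic genes was 68.9 TPM in Huh7-NC and 81.7 in Huh7-si, and that of the 17 mitochondrial genes was 17.5 and 18.8. The ranges overlapped, since RARS2, the highest mitochondrial gene in Huh7-NC with 53.1 TPM, was above 6 cytosolic genes. The enzymes can be paired by amino acid into 17 pairs, with EPRS1, a fused glutamate and proline enzyme, set against both EARS2 and PARS2. For threonine TARS1 was paired and not TARS3, and for phenylalanine FARSA and not FARSB. TARS3, at 4.89 and 4.02 TPM, lay below the mitochondrial TARS2, at 24.5 TPM in Huh7-NC and 27.6 in Huh7-si. In Huh7-NC the cytosolic gene had the higher TPM in 17 of 17 pairs, by a ratio of 1.28 to 33.2 with a median of 4.30. In Huh7-si it was higher in 16 of 17, and the ratio ran from 0.921 to 41.2 with a median of 3.91. Serine was the exception among these pairs, where SARS1 had 57.1 and 54.7 TPM and SARS2 had 39.1 and 59.4. That turn is in TPM alone, since SARS2 had 1144 reads in Huh7-NC against 1003 in Huh7-si. Methionine had the widest gap, with MARS2 at 9.70 and 11.5 TPM.

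No synthetase gene was called in either direction at a fold of at least 2 with an exact binomial p under 0.05. Among all 26379 genes with reads, 10.4% were called higher and 1.02% lower. A closer background is the 10684 protein-coding genes with at least 100 reads in each library, of which 4.12% were called higher and 0.178% lower. At a fold of 1.5 the synthetase count was still 0 in each direction, against 16.2% and 3.57% of that background. That 0 holds for scaling by total reads. With TMM scaling 3 genes, FARSA, RARS1 and FARS2, were lower by a fold of 1.5 (7.32%), against 13.8% of the background, and with median of ratios FARSA alone was. Values of this size were common, and 57.4% of the background genes lay between the lowest and the highest synthetase value. Counting error was small beside these limits. The median interval reached 0.10 on either side of the log2 fold change, the highest upper bound was 0.53, for VARS2, and the lowest lower bound was -0.61, for FARS2. No interval of the 41 reached a fold of 2 in either direction.

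Smaller differences beyond counting error were common in both directions. With p-values of the exact binomial test adjusted by Benjamini-Hochberg over all genes with reads and no fold required, 11 synthetase genes (26.8%) were higher in Huh7-si and 14 (34.1%) lower. The background shares were 42.4% higher and 27.9% lower. These counts rest on scaling by total reads. Other scalings moved every log2 fold change down by 0.19 to 0.22, and the counts of genes whose interval lay above and below 0 then went from 13 and 16 to 1 and 30 with TMM. With TMM 27.2% of the background genes had an interval above 0 and 47.5% below it, against 2.44% and 73.2% of the synthetase genes. The median over the 41 genes was -0.04, against 0.09 for the background genes. The reads of the family as a whole made up 0.473% of the Huh7-NC library and 0.457% of the Huh7-si library.

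**Figure D2:**
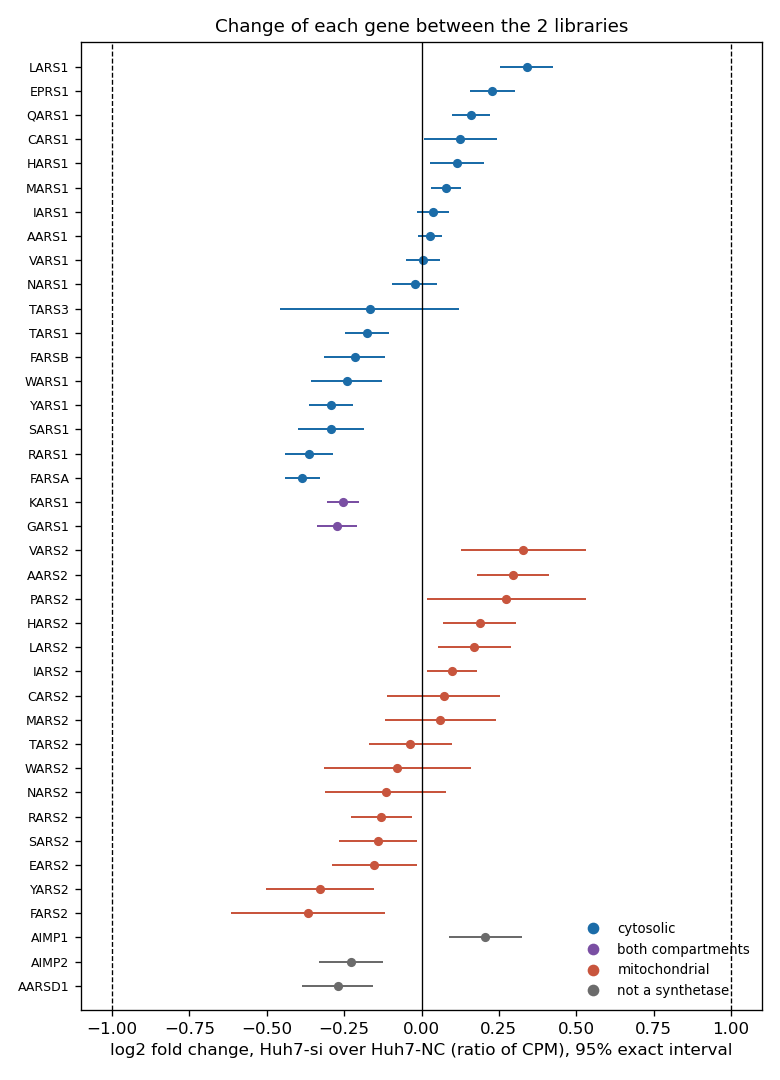
The log2 fold change of each gene, Huh7-si over Huh7-NC, from the ratio of CPM, with 95% exact intervals for counting error and dashed lines at a fold of 2 in either direction. The intervals of the 39 genes shown stay inside the dashed lines, and cytosolic and mitochondrial enzymes lie on both sides of 0.

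Cytosolic enzymes lay on both sides of 0. By total reads 9 were higher and 10 lower in Huh7-si, and the interval lay above 0 for 6, below 0 for 7 and across 0 for 6, with a median log2 fold change of -0.02. Of the 10684 background genes 6253 were higher, and the interval lay above 0 for 44.6% and below 0 for 29.6%. The summed level of the cytosolic enzymes was 3297 CPM in Huh7-NC and 3234 in Huh7-si. With TMM scaling the split was 2 higher and 17 lower, and by TPM 14 higher and 5 lower. By TPM 7819 of the 10684 background genes were higher.

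The cytosolic gene with the highest ratio was LARS1, the leucine enzyme, with 2180 reads in Huh7-NC against 2667 in Huh7-si, or 32.7 and 42.7 TPM. Its log2 fold change was 0.34 (95% interval 0.26 to 0.42; adjusted exact binomial p = 2.8e-15). EPRS1 had 3115 and 3528 reads, a log2 fold change of 0.23 (0.16 to 0.30; adjusted exact binomial p = 7.6e-10). QARS1 had 4550 and 4912 reads, at 0.16 (0.10 to 0.22; adjusted exact binomial p = 4.2e-07). These 3 enzymes belong to the multisynthetase complex. Of the 7 cytosolic enzymes in the complex 5 were higher and 2 lower in Huh7-si, with RARS1, given below, among the lower. With TMM scaling QARS1 moved below 0, EPRS1 came to 0.00 and LARS1 stayed above 0.

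At the other end stood FARSA, the catalytic subunit of the phenylalanine enzyme, with 6354 reads in Huh7-NC against 4704 in Huh7-si, or 210 and 183 TPM. Its log2 fold change was -0.38 (-0.44 to -0.33; adjusted exact binomial p = 9.7e-43). RARS1, the arginine enzyme, had 3346 and 2515 reads, with a log2 fold change of -0.36 (-0.44 to -0.29; adjusted exact binomial p = 1.4e-20). SARS1, which charges serine also onto the selenocysteine tRNA, had 1768 and 1395 reads, at -0.29 (-0.40 to -0.19; adjusted exact binomial p = 7.7e-08). All 3 stayed below 0 under each scaling and by TPM. FARSB, the other subunit of the phenylalanine enzyme, had 1953 and 1625 reads, with a log2 fold change of -0.22, so both subunits were lower in reads. By TPM FARSB was nearly level, with a log2 ratio of 0.02.

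AARS1, MARS1, IARS1 and VARS1, with more reads than the other cytosolic enzymes, lay between these ends. AARS1 had 12805 reads in Huh7-NC against 12619 in Huh7-si, with a log2 fold change of 0.03 (-0.01 to 0.06). MARS1 had 7923 and 8088 reads, at 0.08 (0.03 to 0.12; adjusted exact binomial p = 0.00189). IARS1, the isoleucine enzyme, had 7121 and 7060 reads, at 0.04 (-0.01 to 0.08). Of these 4, only MARS1 had an interval that left out 0 by total reads. VARS1, the valine enzyme, had 6374 and 6180 reads, at 0.00 (-0.05 to 0.06). All 4 lay below 0 with TMM scaling.

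KARS1 and GARS1, which make both the cytosolic and the mitochondrial enzyme, had similar values. KARS1 had 7846 reads in Huh7-NC against 6364 in Huh7-si, with a log2 fold change of -0.25 (-0.30 to -0.21; adjusted exact binomial p = 2.8e-24). GARS1 had 4907 and 3922 reads, at -0.27 (-0.34 to -0.21; adjusted exact binomial p = 6.1e-18). Both stayed lower in Huh7-si under each scaling and by TPM. Counting them with either compartment moved the cytosolic median to -0.02 or the mitochondrial median to -0.08.

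Mitochondrial enzymes lay on both sides of 0 as well, beside the same background. By total reads 8 were higher and 9 lower, the interval lay above 0 for 6, below 0 for 5 and across 0 for 6, and the median log2 fold change was -0.04. Their summed level was 685 CPM in Huh7-NC and 695 in Huh7-si. With TMM scaling the split was 3 higher and 14 lower, and by TPM 13 higher and 3 lower, with NARS2 level.

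The highest mitochondrial gene was VARS2, the valine enzyme, with 383 reads in Huh7-NC against 465 in Huh7-si, with a log2 fold change of 0.33 (0.13 to 0.53; adjusted exact binomial p = 0.00319). AARS2, for alanine, had 1160 and 1376 reads, at 0.30 (0.18 to 0.41; adjusted exact binomial p = 1.5e-06). PARS2, for proline, had 243 and 284 reads, at 0.27 (0.02 to 0.53), and its adjusted exact binomial p of 0.0778 missed the threshold. With TMM scaling VARS2 came to 0.10, AARS2 to 0.07 and PARS2 to 0.05, and no mitochondrial interval lay above 0 under any of the 3 other scalings. Relative to genes of like length, set out below, VARS2 was at 0.14, AARS2 at -0.05 and PARS2 at 0.25. VARS2 overlaps GTF2H4 on the same strand over 5865 bases in GENCODE 29, and GTF2H4 had 664 and 679 reads, so that the division of shared reads between the genes is uncertain.

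FARS2, the mitochondrial phenylalanine enzyme, was lowest, with 320 reads in Huh7-NC against 240 in Huh7-si and a log2 fold change of -0.37 (-0.61 to -0.12; adjusted exact binomial p = 0.00929). YARS2 had 657 and 506 reads, at -0.33 (-0.50 to -0.16; adjusted exact binomial p = 0.000453). EARS2, for glutamate, had 990 and 861 reads, at -0.15 (-0.29 to -0.02), and its adjusted exact binomial p of 0.0602 missed the threshold. By TPM, FARS2 and YARS2 stayed lower in Huh7-si, while EARS2 turned, with 24.2 TPM in Huh7-NC and 26.4 in Huh7-si. Mitochondrial genes tended to have fewer reads than cytosolic ones, 240 to 2680 per library against 191 to 12805, and an interval widens as reads fall. The ranges overlapped, since TARS3, a cytosolic gene, had the fewest reads and the widest interval of the 41.

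The cytosolic and the mitochondrial enzyme were then compared for each amino acid. The difference of log2 fold changes, cytosolic minus mitochondrial, had a median of -0.05 over 17 pairs, with 7 pairs above 0 and 10 below. Scaling by library cannot move this difference. Its 95% interval from the counts spanned 0 for 12 pairs, lay above 0 for 2 and below 0 for 3. Glutamate had the largest difference, 0.38 (0.23 to 0.53), from 0.23 for EPRS1 and -0.15 for EARS2. LARS1 and LARS2, for leucine, differed by 0.17 (0.03 to 0.31). On the other side stood valine, with VARS1 below VARS2 by -0.32 (-0.53 to -0.12), then alanine at -0.27 (-0.39 to -0.15) and arginine at -0.23 (-0.35 to -0.11). The smallest differences were -0.02 (-0.27 to 0.23) for FARSA and FARS2 and 0.02 (-0.16 to 0.20) for MARS1 and MARS2. FARSA and FARS2 were each the lowest of their own compartment. FARSB, the other phenylalanine subunit, was not paired and lay higher than both, at -0.22. A pair whose interval spans 0 is not shown to have moved alike.

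**Figure D3:**
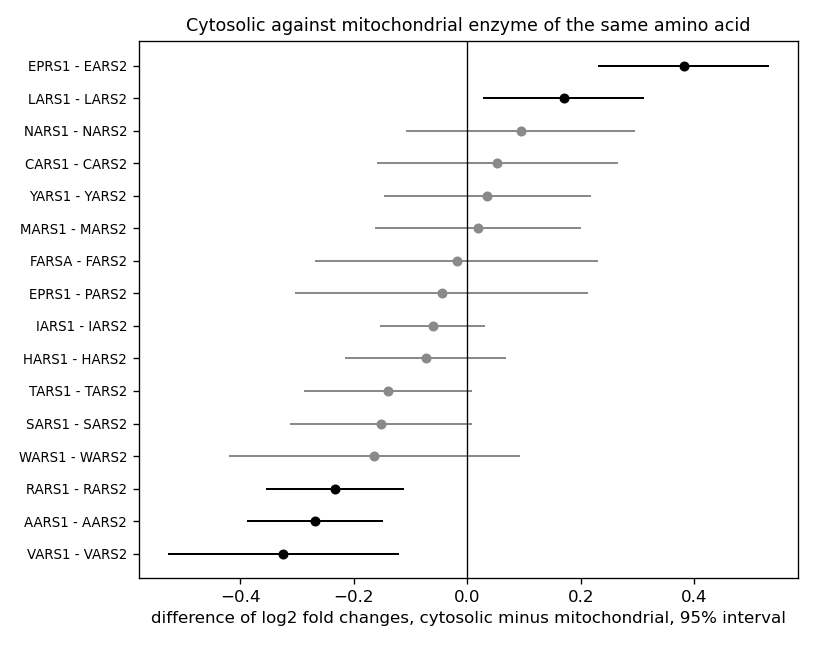
The log2 fold change of the cytosolic gene minus that of the mitochondrial gene for each of 16 pairs, with 95% intervals from the counts, black where the interval leaves out 0. The glutamate pair lies at 0.38 on the right and the valine pair at -0.32 on the left, and 11 grey pairs span 0.

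The histidine genes, which share the promoter stretch given above, both had more reads in Huh7-si. HARS1 had 2226 reads in Huh7-NC against 2328 in Huh7-si, with a log2 fold change of 0.11 (0.03 to 0.20). HARS2 had 1199 and 1320 reads, at 0.19 (0.07 to 0.30). Their difference was -0.07 (-0.21 to 0.07). With TMM scaling both values lay below 0. The genes overlap by 437 bases on opposite strands in GENCODE 29 and whether counting used strand is not given in the sources used here, so reads there cannot be told apart.

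Gene length ran along with these differences. Long genes had higher ratios throughout the library, and Spearman's rho between the deposited gene length and the log2 fold change was 0.58 over the 10684 background genes. Over the 41 synthetase genes it was 0.49, over the 19 cytosolic 0.49 and over the 17 mitochondrial 0.69, all across genes of the same 2 libraries. Cytosolic genes of at least 3000 bases had a median log2 fold change of 0.02 (8 genes) and shorter ones -0.18 (11 genes). Mitochondrial genes gave 0.13 (6 genes) and -0.12 (11 genes). What sets the relation with length was not tested.

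Each gene was then set against the median of 14046 protein-coding genes, those with at least 10 reads in all and some in each library, in 20 bins of length. The value relative to length was below 0 for 32 of 41 genes and above 0 for 9, with a median of -0.14. Over the 10684 background genes it was above 0 for 4770 and below 0 for 5906, with a median of -0.04. Cytosolic enzymes were below for 16 of 19, with a median of -0.23, and mitochondrial enzymes for 12 of 17, with a median of -0.10. With bins made from the 10684 background genes alone, 29 of 41 were below 0, and the medians were -0.16 for cytosolic and -0.04 for mitochondrial enzymes. LARS1, the highest gene by reads, is 4760 bases long and lay at 0.00 relative to its length. FARSB, at 6761 bases the longest, was lowest at -0.66. That value depends on the deposited length, which is not the one behind the TPM of FARSB. In Huh7-NC FARSB had 12.6 CPM per kilobase of deposited length against 39.4 TPM, where AARS1 had 157 and 186. Its value with another length was not tested. AIMP1, at 1607 bases, was highest at 0.35. The glutamate difference also went, from 0.38 to -0.03, since EPRS1 is 4862 bases long and EARS2 1709. Relative to length the cytosolic gene was lower in 13 of 17 pairs, with a median difference of -0.05.

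**Figure D4:**
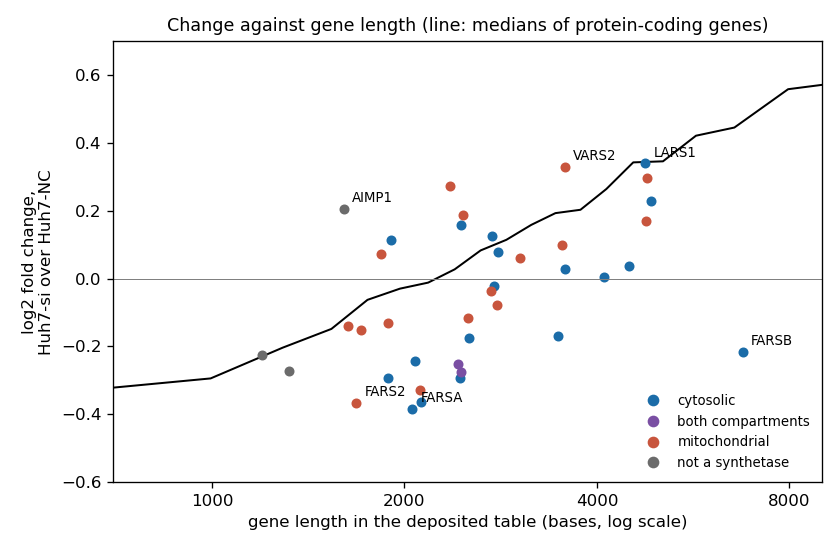
The log2 fold change of each synthetase gene, Huh7-si over Huh7-NC, against its deposited length on a log axis, with a line through the medians of 20 length bins of 14046 protein-coding genes. Of the 39 points shown 30 lie below their bin's median. By deposited length FARSB, at 6761 bases, lies farthest below and AIMP1 farthest above.

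Class I and class II synthetases have unrelated catalytic folds. Cytosolic class I genes had a median log2 fold change of 0.04 (9 genes, 6 higher) and class II genes -0.17 (9 genes, 2 higher). Mitochondrial class I genes had 0.06 (9 genes) and class II genes -0.06 (8 genes). Relative to length the cytosolic medians were -0.23 and -0.26 and the mitochondrial ones -0.10 and -0.08, so the mitochondrial order turned. EPRS1 was left out of the cytosolic classes because it joins an enzyme of each. These are medians over genes and no test was made of their differences.

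Among cytosolic enzymes, the 7 in the complex had a median log2 fold change of 0.08 and the 12 outside it -0.17, and relative to length -0.12 and -0.26. Of the 11 genes listed for the complex, 5 were higher and 4 lower with an adjusted exact binomial p under 0.05, where the background shares were 42.4% and 27.9%. With TMM scaling the interval lay above 0 for 1 and below 0 for 8, beside 27.2% and 47.5% of the background genes. LARS1 was the highest. EEF1E1, the third scaffold protein (AIMP3), was the lowest, with 1310 reads in Huh7-NC against 841 in Huh7-si and a log2 fold change of -0.59 (-0.72 to -0.46; adjusted exact binomial p = 1.0e-19). Relative to length EEF1E1, at 1047 bases, was at -0.30, and RARS1 was lower at -0.35. The scaffold proteins went apart, since AIMP1 had 1167 and 1301 reads at 0.21 (0.09 to 0.32) and AIMP2 had 1799 and 1486 at -0.23 (-0.33 to -0.13).

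By TPM more synthetase genes were higher than lower, as in the background. The log2 ratio of TPM was above 0 for 29 of 41 genes and for 7819 of the 10684 background genes. Its median was 0.17 over the 41 genes and 0.29 over the background. For 39 of the 41 it was above the log2 ratio of reads, by a median of 0.18. Over the background genes the median gap was 0.19, about the same size. Between reads and TPM 11 genes changed sign. SARS2 had the widest gap, 0.74, with fewer reads in Huh7-si and a TPM of 39.1 in Huh7-NC and 59.4 in Huh7-si. MARS1 had a gap of 0.48, with 7923 and 8088 reads and 322 and 473 TPM. Levels of single transcripts were not used here. SARS2 shares 15493 bases on its strand with AC011455.2, which had 547 reads in Huh7-NC against 768 in Huh7-si. MARS1 overlaps DDIT3 over 982 bases on the opposite strand, and DDIT3 had 360 and 567 reads. The part of these overlaps in the TPM values was not tested.

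**Figure D5:**
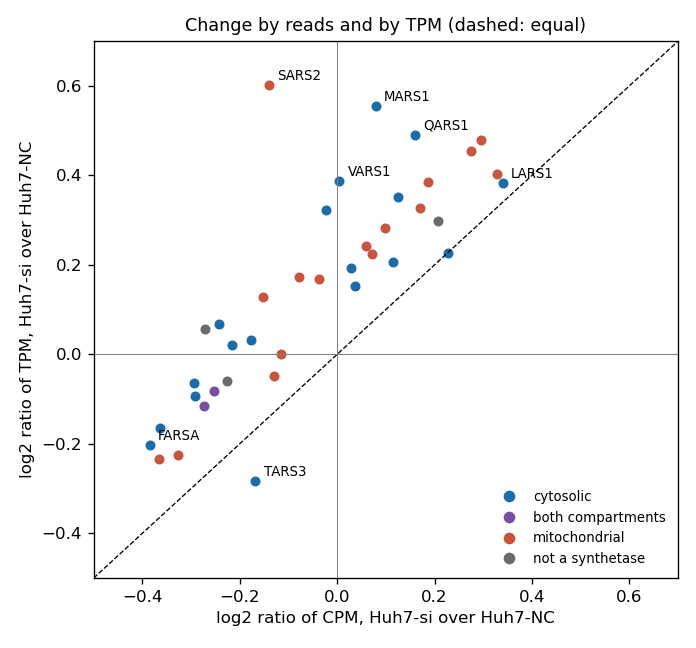
The log2 ratio of TPM against the log2 ratio of CPM, Huh7-si over Huh7-NC, for 39 genes, with a dashed line where both are equal. Of these 39 points 37 lie above the line, with SARS2 and MARS1 farthest above it.

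Counts for 18 of the 41 genes were exactly whole as written in both libraries, and those of the other genes held decimals in at least 1 library. In GENCODE 29, 5 of the 41 overlap another gene with reads on the same strand and 16 on the opposite strand. AARSD1 is one of the 5, with 1484 reads in Huh7-NC against 1189 in Huh7-si at -0.27 (-0.38 to -0.16), beside the read-through gene PTGES3L-AARSD1 with 173 and 177 reads.

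The 6 cytosolic genes with the TGATGNAA element had a median log2 fold change of 0.03 and the 8 cytosolic genes whose window lacked it -0.23. Their median lengths were 2779.5 and 2101 bases, and relative to length the medians were -0.15 and -0.25. With CCGGAAG the cytosolic order was the reverse, -0.18 with a match and 0.04 without, at median lengths of 2122 and 3572 bases. Relative to length these medians were -0.23 and -0.17. No test was made of these medians.

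Of 14 amino acid response genes, 4 were higher and 6 lower with an adjusted exact binomial p under 0.05, where the background shares were 42.4% and 27.9%. One gene was called higher at a fold of 2, as were 4.12% of the background genes. That was ATF3, a stress-induced transcription factor, with 312 reads in Huh7-NC against 811 in Huh7-si and a log2 fold change of 1.43 (1.24 to 1.62; adjusted exact binomial p = 5.4e-54). ASNS, asparagine synthetase and a classic target of ATF4, was lowest, with 1031 and 671 reads at -0.57 (-0.71 to -0.43; adjusted exact binomial p = 7.5e-15). ATF4, named here because of its element, had 11428 and 8893 reads at -0.31 (-0.35 to -0.27). Its own protein is set mainly by translation, which RNA-seq does not measure. The median over the 14 genes was -0.02 by total reads and -0.24 with TMM scaling. With TMM the interval lay above 0 for 4 and below 0 for 9, beside 27.2% and 47.5% of the background genes.

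Other steps of the tRNA pathway are given here list by list. Single genes of the selenocysteine and editing lists passed the synthetase range of -0.38 to 0.34. Of the maturation list RPP40 passed it by little, at -0.40, and the first list below stayed inside it. Mitochondria lack a glutamine enzyme and make that charged tRNA by amidation, and this route and initiator formylation are listed with 4 genes, GATB, GATC, QRSL1 and MTFMT. All 4 had a log2 fold change below 0, with a median of -0.14, and 2 were lower with an adjusted exact binomial p under 0.05, where the background share was 27.9%. MTFMT, the formyltransferase, was lowest, with 524 reads in Huh7-NC against 410 in Huh7-si at -0.30 (-0.49 to -0.12). GATC was highest, with 824 and 785 reads at -0.02 (-0.16 to 0.12). With TMM scaling the interval lay below 0 for all 4, beside 47.5% of the background genes.

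Selenocysteine has no synthetase and is made on its tRNA after SARS1 has charged it with serine. PSTK, the kinase that acts next, had 79 reads in Huh7-NC against 112 in Huh7-si, at 0.55 (0.12 to 0.99; adjusted exact binomial p = 0.0251). SEPSECS, which completes the step, had 419 and 582 reads at 0.52 (0.34 to 0.71; adjusted exact binomial p = 7.9e-08). SARS1 was the lowest of the 3. Relative to genes of like length SEPSECS, at 5802 bases, was at 0.10, PSTK at 0.75 and SARS1 at -0.26. With TMM scaling PSTK had an interval across 0, SEPSECS stayed above it and SARS1 below. The selenocysteine tRNA gene is itself transcribed with BRF2, and its RNA was not analysed here.

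Of 5 editing and proofreading genes, 3 were lower and none higher with an adjusted exact binomial p under 0.05, beside 27.9% and 42.4% of the background. DTD1, which removes D-amino acids from tRNA, was lowest, with 629 and 391 reads at -0.64 (-0.82 to -0.45; adjusted exact binomial p = 3.3e-11). PTRH2, a peptidyl-tRNA hydrolase, was highest, with 843 and 880 reads at 0.11 (-0.03 to 0.25). Of 13 genes of tRNA maturation and export, 2 were higher and 4 lower by the same rule and beside the same shares, with a median of -0.13. TRMU, which thiolates mitochondrial tRNAs, was highest, with 958 and 1128 reads at 0.29 (0.16 to 0.41; adjusted exact binomial p = 3.0e-05). RPP40, a subunit of RNase P, was lowest, with 165 and 121 reads at -0.40 (-0.75 to -0.05; adjusted exact binomial p = 0.0531, which missed the threshold). With TMM scaling the interval lay above 0 for 0 and below 0 for 10 of these 13 genes, and TRMU came to 0.06. It lay above 0 for 0 and below 0 for 4 of the 5 editing genes. The background shares with TMM were 27.2% above and 47.5% below.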

How the data were processed

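RNA-seq of Huh7-NC and Huh7-si, 1 library each, was analysed. Submitters' processing notes name TopHat2 2.0.12, Bowtie2 2.0.6 and GRCh37, and the counting tool and strandedness are not given in the sources used here. In the deposited table the authors give an estimated count and a TPM value per gene and library. The authors' columns of fold (ratio), log2 fold, p-value and adjusted p, made from these 2 libraries, were not used. Estimated counts were rounded to whole numbers. Fold changes are ratios of CPM. A two-sided exact binomial test on the library totals was run on all genes with reads (SciPy 1.17.1), with 95% Clopper-Pearson intervals and Benjamini-Hochberg adjustment. These cover counting error only. A fold of 2 with p under 0.05 was a call. For relation to length, the median of 14046 protein-coding genes with at least 10 reads in all and some in each library was taken in 20 length bins. The background is protein-coding genes with at least 100 reads in each library. Scalings came from edgeR 4.0.16 and DESeq2 1.42.0. Gene types and overlaps came from GENCODE 29 (GRCh38), which holds 94.8% of the identifiers. The test was tried on simulated counts that held counting error and no spread between cultures. The planted changes were larger than those of the synthetase genes, so differences as small as theirs were not tried. Named genes were the 3 highest and 3 lowest of each compartment, pairs with the largest and smallest differences, and the highest and lowest gene of each list. ATF4, DDIT3 and the other genes named beside them were chosen after their values were seen. Members and lists were chosen with earlier results of these data known. A pair of the genes is counted in the totals and is not reported here by name or shown in figures.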

Additional observations from a re-analysis of the deposited data

How the results depend on the processing

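No synthetase gene was called in either direction at a fold of 2 under TMM, median of ratios or upper quartile scaling. The same held with 1 CPM added, with at least 10 reads required, or with adjusted p beside that fold. It held too under the exact test of edgeR given a coefficient of variation of 0.4, and at a fold of 1.5 by total reads. Most of these outcomes were fixed beforehand. All 41 genes had at least 100 reads in each library, so requiring 10 removed none. Log2 fold changes ran from -0.38 to 0.34. No p-value rule and no shift of 0.19 to 0.22 could then give a call at a fold of 2. Chosen after seeing the data, a fold of 1.5 with another scaling gave 3 lower genes (TMM), 1 (median of ratios) and 0 (upper quartile), and 0 higher under each. BRF2 stayed between -1.99 and -1.59. The cytosolic median log2 fold change was -0.24 with TMM, -0.23 with median of ratios, -0.21 with the upper quartile, 0.19 by TPM, -0.23 relative to genes of like length and, chosen after seeing the data, -0.16 when those have at least 100 reads in each library. The mitochondrial median was -0.26, -0.24 and -0.22 under the same 3 scalings and 0.22 by TPM. By TPM the median over the background genes was 0.29. The shift with scaling follows from its construction, and the cause of the shift with TPM was not tested. Single genes changed sign in 13 cases with TMM, 13 with median of ratios, 11 with the upper quartile, 11 by TPM and 11 relative to length. The median difference between partners stayed between -0.10 and -0.01. No paired analysis was possible because there was 1 library per condition, and for that reason no replicate could be left out. Depth limits the genes with the fewest reads, such as TARS3, whose interval reached 0.29 on either side.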
